A study of Homo sapiens with 18 samples.

Results

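HUDEP-2 is an immortalised line of human erythroid progenitors from cord blood, and HBBko is that line with its beta-globin gene, HBB, disrupted. The first 48 h of erythroid differentiation in HBBko cells is described here from 6 of the 18 RNA-seq libraries of the study: 3 of HBBko cells after 48 h of differentiation and 3 of undifferentiated HBBko cells. The other libraries, used only as a setting for these, are 3 of HBBko cells at 5 d and 3 each of unedited HUDEP-2 cells (WT) undifferentiated, at 48 h and at 5 d. Total RNA was made into TruSeq libraries. The labels name no agent added to or withheld from the medium and no clone number for HBBko, and they do not say whether the triplicates were started separately, so the p-values measure the spread between these libraries, which may be technical.

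Erythroid progenitors that leave the proliferating state build up globin mRNA, the enzymes that make heme and the proteins of the red cell membrane, while receptors and transcription factors of the progenitor are shut off. Hemoglobin pairs alpha-like chains, encoded on chromosome 16, with beta-like chains, encoded on chromosome 11. The gamma-globins HBG1 and HBG2 are the fetal beta-like chains and are kept low in adult cells by repressors such as BCL11A. The study's title joins the stress factor ATF4, the progenitor factor MYB and gamma-globin in the response to beta-globin loss, and the same genes were followed here over time within the HBBko line.

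Values are in scaled TPM, a length-corrected transcript abundance that the authors deposited after scaling between libraries. The number of reads behind each value is unknown. The deposited sums were 847705 to 861071 in the libraries at 48 h and 783214 to 800413 in the undifferentiated ones, and 10724 to 10736 against 11120 to 11174 genes had at least 1 scaled TPM. Across tested genes, libraries correlated at 0.998 within the 48 h group, at 0.995 to 0.996 within the undifferentiated group and at 0.924 to 0.931 between the groups. The deposited columns are headed thal and wen, and thal was read as HBBko from the names alone. In the libraries so read, HBB had 4598, 4843 and 4983 scaled TPM undifferentiated, 22102, 22926 and 24265 at 48 h, and 69004, 70764 and 72650 at 5 d. At each stage every HBBko value lay below every WT value, which were 12454 to 22376 undifferentiated, 99196 to 132741 at 48 h and 427628 to 458719 at 5 d. Among WT libraries, undifferentiated replicate 3 stood apart from its group with the highest of these undifferentiated HBB values. The main comparisons with WT are given with and without that library. WT 48 h replicate 3 also lay apart, with HBB at 13.5% of its library sum against 10.8% and 11.1% in replicates 1 and 2. It was left out only in a fit of the difference between lines, and leaving out both libraries was not tested.

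The labelled cell type was checked against its markers. All 10 erythroid markers were higher at 48 h, against 29.8% of all tested genes. The markers summed to 82436 to 88156 scaled TPM at 48 h against 9160 to 10306 undifferentiated, most of it from HBA1 and HBA2. Markers of other blood lineages were scarce at both stages. The 12 myeloid markers summed to 0.540 to 0.634 scaled TPM at 48 h against 1.90 to 2.28 undifferentiated, with 4 of 12 at 0 in all 6 libraries, and none passed the filter on low values. The 12 lymphoid markers summed to 0.683 to 0.968 against 0.560 to 1.38, also with 4 at 0 throughout and none tested. The 12 megakaryocyte markers summed to 4.73 to 5.24 at 48 h against 3.89 to 4.08 undifferentiated, with 3 at 0 throughout. The 12 stromal and endothelial markers summed to 17.1 to 18.7 at 48 h against 43.8 to 45.0 undifferentiated, nearly all of it ENG, and 3 were at 0 throughout. Mast cell and eosinophil transcripts were the exception and are described with the genes that fell.

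After 48 h, changes of at least 2-fold in HBBko cells were more often downward than upward. Of 35616 listed genes, 11237 had at least 1 scaled TPM in at least 3 of the 6 libraries and were tested with limma on log2(scaled TPM + 1), and all fold changes below are on that scale, 48 h over undifferentiated. At a Benjamini-Hochberg adjusted p under 0.05, 8542 genes were called (76.0%), 3348 higher (29.8%) and 5194 lower (46.2%) at 48 h. Asking also for a change of at least 2-fold left 346 higher (3.08%) and 1119 lower (9.96%) genes. Called genes at least 8-fold changed numbered 20 higher and 75 lower. The median change over tested genes was -0.10, and the 5th and 95th percentiles were -1.48 and 0.80. The balance of directions depended on how libraries were put on 1 scale. Median-of-ratios scaling, which moved the median to 0.01, gave 4270 higher and 4281 lower genes, and quantile normalization, with a median of 0.06, gave 4773 and 3948, whereas rescaling to equal sums, with a median of -0.20, gave 2571 and 6138. At least 2-fold changes stayed mostly downward in each, with 431 higher and 965 lower genes, 567 and 803, and 282 and 1267 under those 3 scalings in the same order.

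**Figure D1:**
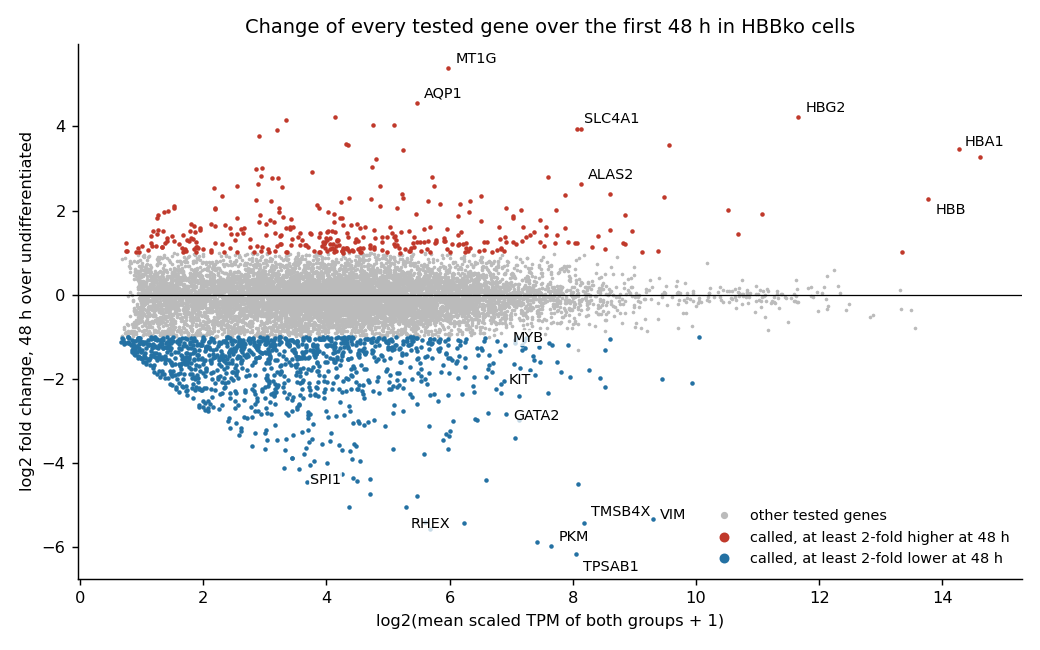
Log2 fold change of each of the 11237 tested genes, 48 h over undifferentiated, against the log2 of its mean scaled TPM + 1 over both groups; 3 HBBko libraries a group. Red points are the 346 genes called at least 2-fold higher and blue points the 1119 called at least 2-fold lower; globins occupy the upper right, and PKM, VIM and TMSB4X are among the lowest points.

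Globin transcripts made up 13.0%, 12.9% and 13.6% of the library signal at 48 h, against 1.66%, 1.62% and 1.78% undifferentiated. The share stood at 39.3% ± 0.634 (SD, n = 3) at 5 d. All 10 globin genes were higher at 48 h, 9 of them at least 2-fold, and the stages did not overlap for any of them. Over all tested genes the stages did not overlap for 78.2%, and for 30.7% with the 48 h group higher. With 3 libraries a group the two-sided exact permutation test cannot go below 0.1, and each of the 7 shares and ratios computed reached that p, also after adjustment over the 7.

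Among the alpha-like genes, HBA1 had 44632, 43866 and 46668 scaled TPM at 48 h, against 4593, 4401 and 5089 undifferentiated. HBA2 had 35757, 34754 and 37599 at 48 h, against 3235, 3097 and 3529 undifferentiated. These adult alpha-globin genes encode the same protein and are near-identical, so reads could be split between them, but their sum was 9.50% ± 0.284 of the signal at 48 h against 1.01% ± 0.0674 undifferentiated (SD, n = 3 each). HBM, the alpha-like mu-globin, rose by 3.55 ± 0.08 on the log2 scale (SE), HBZ, the embryonic zeta chain, by 2.07 ± 0.10, and HBQ1, the theta chain, by 0.86 ± 0.07. HBZ held 186 to 200 scaled TPM at 48 h against 37.7 to 52.8 undifferentiated, and its mean of 173 at 5 d lay near the 48 h level.

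The beta-like genes rose by unequal amounts. HBB, at chr11:5225464-5229395 on the minus strand (GRCh38), rose by 2.26 ± 0.04 (limma adjusted p = 7.8e-10). The fetal gene HBG2 had 5879, 6247 and 6339 scaled TPM at 48 h, against 304, 339 and 343 undifferentiated, a rise of 4.22 ± 0.05 (limma adjusted p = 9.3e-11). HBG1 had 496, 561 and 528 at 48 h, against 32.2, 34.6 and 34.5 undifferentiated, a rise of 3.93 ± 0.05. The groups lie an order of magnitude apart for both genes, although reads of this near-identical pair could be split between them. The embryonic gene HBE1 stayed rare, with 4.01 to 4.21 scaled TPM at 48 h against 0.681 to 0.986 undifferentiated. It passed the filter on low values through the 48 h libraries alone. HBD, which encodes the delta chain of the minor adult hemoglobin, had 27.2, 24.8 and 32.0 scaled TPM at 48 h, against 7.40, 6.57 and 7.67 undifferentiated, and a mean of 473 at 5 d.

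Gamma-globin therefore took a larger part of the fetal and adult beta-like pool. HBG1 and HBG2 together were 22.4%, 22.9% and 22.1% of the sum of gamma and HBB at 48 h, against 6.82%, 7.17% and 7.04% undifferentiated. At 5 d the mean was 41.1% ± 2.30 (SD, n = 3). In WT libraries the same share was 2.03% ± 0.147 at 48 h against 1.37% ± 0.135 undifferentiated, and 1.29% to 1.52% in the undifferentiated libraries other than replicate 3. The ratio of alpha-like to beta-like signal was 2.78 ± 0.0887 at 48 h against 1.58 ± 0.0947 undifferentiated in HBBko cells, and 0.801 ± 0.0228 against 0.456 ± 0.0340 in WT cells, with 0.417 to 0.477 in the undifferentiated libraries other than replicate 3. The change of HBG1 exceeded that in WT by 0.67 ± 0.23 on the log2 scale and that of HBG2 by 0.77 ± 0.26, but neither difference was called (limma adjusted p = 0.075 and 0.077). Without undifferentiated WT replicate 3 the differences were 0.45 ± 0.16 and 0.53 ± 0.19 (limma adjusted p = 0.073 and 0.083).

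**Figure D2:**
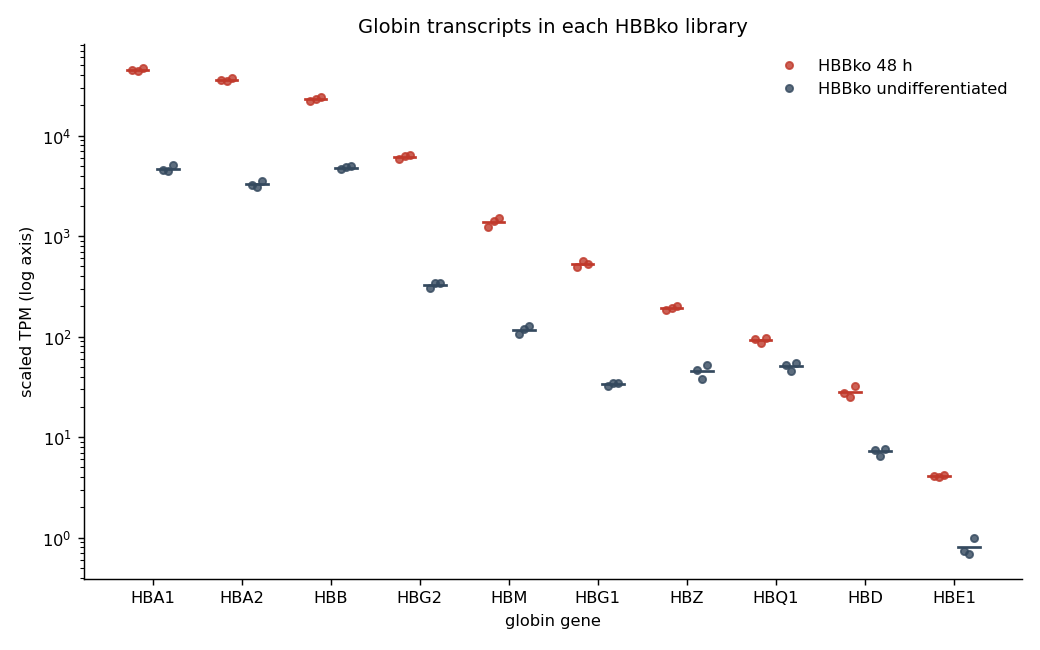
Scaled TPM (log axis) of the 10 globin genes in each HBBko library, 48 h in red left of undifferentiated in dark blue; points are libraries and bars group means (n = 3). The groups do not overlap for any globin, as for 78.2% of all tested genes, and the widest gap is that of HBG2.

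The 15 largest rises outside the globins held membrane transporters of the red cell surface, metallothioneins, a pair of other genes and entries whose quantification is uncertain. AQP1, the water channel of the red cell membrane, had 82.4, 83.5 and 86.3 scaled TPM at 48 h, against 2.82, 2.45 and 2.64 undifferentiated, a rise of 4.55 ± 0.05 (limma adjusted p = 6.4e-11). SLC4A1, the band 3 anion exchanger, had 476, 517 and 517 scaled TPM at 48 h, against 29.3, 33.5 and 32.7 undifferentiated, a rise of 3.94 ± 0.05. Both went on to higher means at 5 d, 484 and 2877 scaled TPM. SLC22A4, an organic cation and ergothioneine transporter, rose by 3.58 ± 0.07, ATP1B2, a beta subunit of the sodium pump, by 3.56 ± 0.06, and KCNN4, the calcium-activated potassium channel of red cells, by 3.01 ± 0.13. SCPEP1, a serine carboxypeptidase, rose by 3.04 ± 0.11.

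FCGRT, the heavy chain of the neonatal Fc receptor that recycles immunoglobulin G and albumin, had 31.2, 32.4 and 34.2 scaled TPM at 48 h, against 0.879, 0.775 and 0.708 undifferentiated. It rose by 4.23 ± 0.06 (limma adjusted p = 2.0e-10), and its mean of 11 at 5 d lay between these stages. FCGRT passed the filter on low values through the 48 h libraries alone, so its test is not independent of that filter. Of the remaining entries, AL645939.3 and MICG are pseudogenes in the major histocompatibility region and RPL22P1 is a processed pseudogene of a ribosomal protein gene, so their signal may belong to related sequences. MICG was listed at 0 in all 3 undifferentiated libraries and at 9.75, 15.9 and 13.0 scaled TPM at 48 h, so it too passed only through the latter. RPL22P1 had 52.7, 47.7 and 39.9 scaled TPM at 48 h, against 0.0656, 6.74 and 14.7 undifferentiated, and its change of 3.23 ± 0.80 was 2.11 without undifferentiated replicate 1 and 4.05 without undifferentiated replicate 3.

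Metallothioneins, small cysteine-rich proteins that bind zinc and copper, supplied 5 of the 15 largest rises, and all lie in 1 cluster on chromosome 16. MT1G had 122, 120 and 125 scaled TPM at 48 h, against 2.72, 1.34 and 1.98 undifferentiated, the largest rise of any tested gene at 5.38 ± 0.14 (limma adjusted p = 3.3e-09). MT2A had 55.5, 48.2 and 46.3 scaled TPM at 48 h, against 2.83, 1.47 and 2.11 undifferentiated. MT1X had 74.3, 59.4 and 70.0 scaled TPM at 48 h, against 9.86, 2.13 and 6.52 undifferentiated. In each of these genes every library at 48 h exceeded every undifferentiated one several fold. MT1H had 18.1 to 18.4 scaled TPM at 48 h and was at 0 to 0.159 undifferentiated, and MT1E had 14.6 to 18.4 against 0.118 to 0.159. Both passed the filter on low values through the 48 h libraries alone. At 5 d the means were back to 1.87 for MT1G, 4.61 for MT2A and 1.90 for MT1X. The members MT1A, MT1B and MT1F, looked up after these values were seen, had 1.99 to 4.4 scaled TPM at 48 h against 0 to 0.202 undifferentiated, and passed the filter on low values through the 48 h libraries alone. MT1L, MT1M, MT3 and MT4 did not pass it. The coding sequences of the MT1 genes are alike, so the division of signal among them is uncertain.

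The promoters of the 5 largest rises with a promoter entry are shown because they carry the strongest inductions and include a pair of metallothioneins. They run from 250 bases before to 50 bases after the RefSeq gene start (GRCh38.p14, all on the plus strand): AQP1 at chr7:30911603-30911902, FCGRT at chr19:49512411-49512710, MT1H at chr16:56669564-56669863, MT2A at chr16:56608334-56608633 and SLC22A4 at chr5:132294144-132294443. MT1G, AL645939.3, SLC4A1, MT1E and MICG, which also rank among the first 10, are named only. Capitals mark matches on either strand to AGATAA and TGATAA, forms of the site that GATA factors bind, to CACCC, the core bound by erythroid KLF factors, and to TGCACNC and TGCGCNC, the cores of the metal response element. The last pair was chosen after the expression values were seen.
AQP1: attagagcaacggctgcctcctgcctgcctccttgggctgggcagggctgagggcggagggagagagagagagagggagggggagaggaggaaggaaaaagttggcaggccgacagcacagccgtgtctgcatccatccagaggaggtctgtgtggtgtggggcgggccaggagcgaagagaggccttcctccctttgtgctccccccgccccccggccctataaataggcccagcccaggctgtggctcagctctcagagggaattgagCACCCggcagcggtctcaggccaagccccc
FCGRT: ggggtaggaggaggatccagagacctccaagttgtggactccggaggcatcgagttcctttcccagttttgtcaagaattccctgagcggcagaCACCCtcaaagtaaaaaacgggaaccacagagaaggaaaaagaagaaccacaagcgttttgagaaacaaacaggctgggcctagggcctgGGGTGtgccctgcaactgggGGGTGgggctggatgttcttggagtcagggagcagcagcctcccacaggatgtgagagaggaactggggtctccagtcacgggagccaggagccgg
MT1H: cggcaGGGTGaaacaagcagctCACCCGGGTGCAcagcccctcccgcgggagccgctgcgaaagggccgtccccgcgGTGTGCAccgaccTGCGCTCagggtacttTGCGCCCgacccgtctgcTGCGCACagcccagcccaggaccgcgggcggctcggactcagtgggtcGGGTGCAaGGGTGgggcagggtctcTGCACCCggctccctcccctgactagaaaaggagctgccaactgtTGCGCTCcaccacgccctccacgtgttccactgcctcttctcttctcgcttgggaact
MT2A: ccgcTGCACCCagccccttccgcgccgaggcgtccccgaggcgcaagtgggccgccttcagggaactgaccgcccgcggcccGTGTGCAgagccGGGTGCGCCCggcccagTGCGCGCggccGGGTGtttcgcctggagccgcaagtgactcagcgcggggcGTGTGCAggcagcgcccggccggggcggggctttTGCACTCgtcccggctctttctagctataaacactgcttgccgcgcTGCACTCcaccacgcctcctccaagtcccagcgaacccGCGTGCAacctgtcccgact
SLC22A4: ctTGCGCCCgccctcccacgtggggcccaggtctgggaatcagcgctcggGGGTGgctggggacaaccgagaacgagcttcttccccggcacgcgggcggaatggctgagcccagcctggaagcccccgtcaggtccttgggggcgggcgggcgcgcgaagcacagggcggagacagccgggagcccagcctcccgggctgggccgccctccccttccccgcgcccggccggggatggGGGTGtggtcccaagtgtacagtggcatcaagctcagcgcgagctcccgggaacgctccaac
Neither GATA form occurs in these 5 windows. CACCC occurs 1 time in AQP1, 3 times in FCGRT, 6 in MT1H, 3 in MT2A and 2 in SLC22A4. TGCACNC occurs 4 times in MT1H and 6 times in MT2A and in none of the others, and TGCGCNC occurs 4 times in MT1H, 2 times in MT2A and 1 time in SLC22A4. Matches may overlap one another. Over all 27305 promoters of the RefSeq set, AGATAA is held by 10.5%, TGATAA by 7.76%, CACCC by 58.9%, TGCACNC by 11.9% and TGCGCNC by 20.0%. Among the 251 promoters of genes called at least 2-fold higher the shares were 6.77% for AGATAA, 4.38% for TGATAA and 65.7% for CACCC, against 4.73%, 3.20% and 62.8% in the 8550 promoters of all tested genes. In the 829 promoters of genes called at least 2-fold lower they were 4.10%, 2.65% and 68.8%, so the share with CACCC was higher there than among the higher genes. TGCACNC and TGCGCNC were held by 10.4% and 28.7% of the promoters of higher genes, against 10.9% and 31.9% of those of all tested genes. A match is a run of letters and not a measured site.

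Heme synthesis and the red cell membrane rose as groups. The list counts from here on can be read against all tested genes, of which 29.8% were higher and 46.2% lower. At least 2-fold changes made up 3.08% and 9.96%. Of 20 heme genes, all tested, 16 were higher and 4 lower, and 11 were at least 2-fold higher, with a median change of 1.04 against -0.10 over all tested genes. ALAS2, the erythroid enzyme for the first step of heme synthesis, had 458, 485 and 497 scaled TPM at 48 h, against 70.2, 82.2 and 79.1 undifferentiated, a rise of 2.62 ± 0.06 (limma adjusted p = 1.3e-09). Its housekeeping isoenzyme ALAS1 fell to 11.5 to 11.7 scaled TPM at 48 h, against 19.5 to 20.7 undifferentiated. SLC25A37, mitoferrin-1, which carries iron into mitochondria, had 1170, 1192 and 1195 scaled TPM at 48 h, against 226, 241 and 242 undifferentiated, and SLC25A39, a mitochondrial glutathione carrier, rose by 2.39 ± 0.05. PGRMC1, a heme-binding membrane protein, fell by 0.59 and FLVCR1, a plasma membrane transporter linked to heme export, by 0.34.

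Of 30 genes of the red cell membrane and skeleton, 29 were tested, 26 were higher and 3 lower, and 16 were at least 2-fold higher. After AQP1 and SLC4A1 the largest rise was that of GYPB, which encodes glycophorin B, with 337, 342 and 337 scaled TPM at 48 h, against 39.4, 52.5 and 52.8 undifferentiated. Glycophorin genes are close paralogs, so part of this signal may be shared. The members that fell were SLC14A1, the urea transporter of the Kidd blood group, by 1.06, CD44, an adhesion receptor that is lost during erythroid maturation, by 0.85, and CD47, by 0.56. SLC14A1 had 15.5 to 17.1 scaled TPM at 48 h against 31.7 to 36.6 undifferentiated, and a mean of 105 at 5 d.

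Genes of late maturation mostly rose. Of 30, 29 were tested, 24 were higher and 3 lower, and 13 were at least 2-fold higher. TRIM10, a ubiquitin ligase gene of terminal erythroid cells, had 22.1, 23.2 and 23.9 scaled TPM at 48 h, against 1.96, 2.07 and 2.52 undifferentiated, and a mean of 312 at 5 d. BPGM, which makes the 2,3-bisphosphoglycerate that lowers the oxygen affinity of hemoglobin, rose by 2.11 ± 0.06. BNIP3L, the receptor for mitochondrial clearance, fell instead, to 202 to 210 scaled TPM at 48 h against 310 to 329 undifferentiated, as did TMCC2 and GMPR. Of 19 tested iron handling genes 12 were higher and 3 lower, or 9 and 6 after rescaling to equal sums, and 2 were at least 2-fold higher. GLRX5, which serves iron-sulfur cluster assembly, rose by 1.16 ± 0.03 and SLC11A2, the endosomal iron transporter, by 1.00 ± 0.06. ACO1, the iron-sensing aconitase, fell by 0.60.

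**Figure D3:**
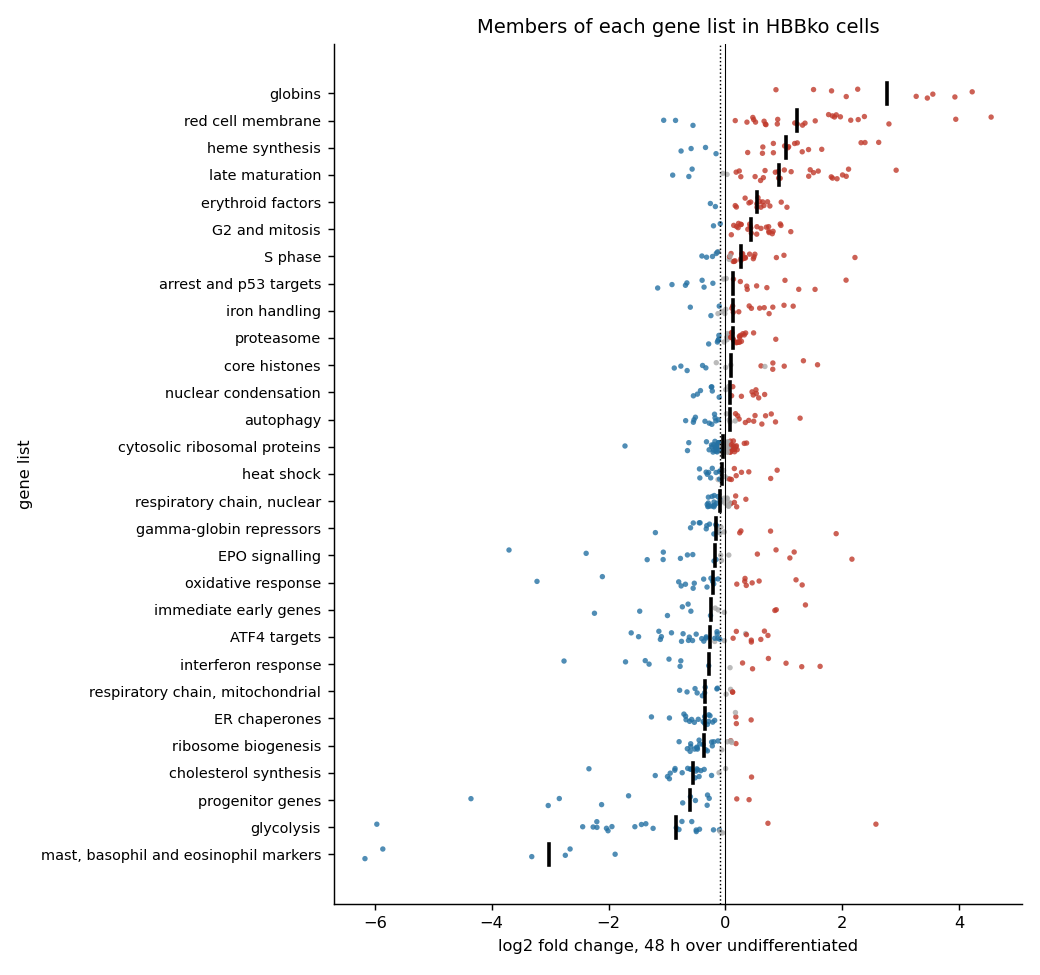
Log2 fold change, 48 h over undifferentiated, of the tested members of each gene list with at least 5 of them; red and blue points are genes called higher and lower, grey points were not called, black bars are list medians, and the dotted line is the median of all tested genes (-0.10). Globin, membrane, heme and late maturation lists lie to the right, and glycolysis and mast cell lists to the left.

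The 15 largest falls held 3 tryptase genes of mast cells and other genes of varied function. TPSAB1, a tryptase of mast cell granules, had 7.10, 5.68 and 6.06 scaled TPM at 48 h, against 561, 476 and 531 undifferentiated, the largest fall at -6.17 ± 0.08 (limma adjusted p = 1.3e-10). The related TPSB2 changed by -5.86 ± 0.07 and TPSD1 by -5.41 ± 0.07, and reads of these near-identical genes could be split between them. All 6 tested of 12 mast, basophil and eosinophil markers were at least 2-fold lower. Any of them below 1 scaled TPM at 48 h passed the filter on low values through the undifferentiated libraries alone. The count may therefore not be independent of that filter. The 12 summed to 19.4 to 24.3 scaled TPM at 48 h against 919 to 1054 undifferentiated, and 1 was at 0 in all 6 libraries. PRG2, the eosinophil granule major basic protein, had 11.4, 8.89 and 10.6 scaled TPM at 48 h, against 113, 109 and 111 undifferentiated. In such bulk libraries fewer cells of a type and less of an RNA per cell cannot be told apart, and the part of these transcripts in the other falls was not tested.

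VIM, the intermediate filament protein vimentin, had 30.0, 28.5 and 30.4 scaled TPM at 48 h, against 1284, 1161 and 1233 undifferentiated, a change of -5.32 ± 0.04 (limma adjusted p = 3.2e-11). TMSB4X, thymosin beta 4, which holds actin monomers, had 12.3, 11.5 and 12.6 at 48 h, against 602, 514 and 580 undifferentiated. The groups were far apart in both, but their later course differed, with means at 5 d of 4.12 for VIM and 51.0 for TMSB4X. CAPG, an actin filament capping protein, changed by -5.04, S100A11, a calcium-binding protein, by -4.79, and HPGD, which degrades prostaglandins, by -4.50. RHEX, an erythropoietin receptor adaptor, had 2.46, 2.25 and 2.63 scaled TPM at 48 h, against 151, 144 and 144 undifferentiated. SIGLEC6, a sialic acid-binding lectin, LITAF, an endosomal protein, CALB2, the calcium-binding protein calretinin, and ZNF521, a zinc finger factor of early progenitors, changed by -5.05, -4.72, -4.46 and -4.42. PALM2-AKAP2, an entry that spans neighbouring genes and is therefore uncertain, changed by -5.57.

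Glycolysis fell broadly, and the more abundant isoenzyme changed between PKM and PKLR and between PFKP and PFKM. Of 25 genes, all tested, 21 were lower and 2 higher, 12 of them at least 2-fold lower, with a median of -0.84. PKM, the pyruvate kinase of proliferating cells at chr15:72199029-72231822 on the minus strand (GRCh38), had 5.76, 4.87 and 5.23 scaled TPM at 48 h, against 429, 346 and 405 undifferentiated, a change of -5.97 ± 0.08 (limma adjusted p = 1.5e-10). PKLR, the pyruvate kinase of red cells, was looked up after these values were seen and had 196, 196 and 198 at 48 h, against 209, 210 and 215 undifferentiated. The red cell enzyme was thus the more abundant pyruvate kinase at 48 h and the lesser one in undifferentiated cells, while its own level changed by only -0.10, which ran from -0.21 to 0.01 over the scalings. Among phosphofructokinases, the muscle form PFKM had 88.9, 90.4 and 93.1 at 48 h, against 14.6, 15 and 13.7 undifferentiated, and the platelet form PFKP had 6.10, 7.01 and 6.53 against 42.1, 37.8 and 40.3. Hexokinase 1, HK1, was the only other member that rose, by 0.73 ± 0.03. PFKFB4, a regulator of phosphofructokinase activity, changed by -2.26.

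Progenitor genes mostly fell. Of 20, 13 were tested, 11 were lower and 2 higher, and 5 were at least 2-fold lower. KIT, the stem cell factor receptor, had 42.1, 41.9 and 41.5 scaled TPM at 48 h, against 180, 190 and 186 undifferentiated, a change of -2.12 ± 0.03, and a mean of 1.98 at 5 d. GATA2, the progenitor GATA factor, had 27.6, 27.1 and 29.9 at 48 h, against 244, 178 and 208 undifferentiated. SPI1, the myeloid factor PU.1, had 1.02, 0.916 and 1.11 at 48 h, against 41.3, 39.1 and 40.3 undifferentiated, and HHEX, a homeobox factor, changed by -3.03. The groups are separated without overlap in each of them, as in 78.2% of all tested genes. MYC fell to 289 to 301 scaled TPM at 48 h, against 442 to 454 undifferentiated. CDK6, a G1 kinase that keeps progenitors cycling, and IKZF1, the lymphoid and erythroid factor Ikaros, were the members that rose, by 0.40 ± 0.08 and 0.19 ± 0.05, and IKZF1 was not called after rescaling to equal sums or in a fit of all 18 libraries.

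The erythroid factors moved upward by small steps. Of 18, all tested, 16 were higher and 2 lower, with a median of 0.55, and 1 was at least 2-fold higher. KLF1, the erythroid activator of adult beta-globin, had 473, 465 and 498 scaled TPM at 48 h, against 309, 284 and 316 undifferentiated. GATA1 had 265, 247 and 264 at 48 h, against 179, 166 and 190 undifferentiated. The largest rise was that of ZFPM1, the GATA1 partner FOG-1, at 1.05 ± 0.05, followed by NFIA at 0.95 ± 0.04 and TAL1 at 0.76 ± 0.03. LYL1 fell by 0.26, and MAFK, a small Maf protein, by 0.17, a change that turned to 0.08 under quantile normalization.

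Among 20 genes that repress gamma-globin or belong to the complexes that do, 12 were lower, 4 higher and 4 not called. The balance depended on the scaling, with 8 lower and 5 higher under median-of-ratios scaling and 16 lower and 2 higher after rescaling to equal sums. On the deposited scale 46.2% of all tested genes were lower and 29.8% higher. MYB, a progenitor factor that represses gamma-globin, had 69.7, 71.7 and 72.8 scaled TPM at 48 h, against 169, 161 and 166 undifferentiated, and 8.78 on average at 5 d. Its change was -1.20 ± 0.03 (limma adjusted p = 3.4e-09) and differed from that in WT by 0.08 ± 0.09, which was not called (limma adjusted p = 0.57), nor was it without undifferentiated WT replicate 3 (0.12 ± 0.09, limma adjusted p = 0.38). BCL11A had 8.99, 8.25 and 8.54 scaled TPM at 48 h, against 10.9, 10.8 and 11.2 undifferentiated, a change of -0.32 ± 0.05, and lost its call in 1 of 19 alternative analyses. CHD4, the remodeller of the NuRD complex, changed by -0.60 and KDM1A, a histone demethylase, by -0.55. SOX6, a partner of BCL11A, went the other way, with 9.90, 11.7 and 11.2 scaled TPM at 48 h, against 2.07, 1.98 and 2.60 undifferentiated. EIF2AK1, the heme-regulated kinase of eIF2alpha, rose by 0.77 ± 0.03, and ZBTB7A, another direct repressor, by 0.26 ± 0.07, a call that was lost after rescaling to equal sums.

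ATF4, the transcription factor that eIF2alpha phosphorylation turns on at translation, hardly moved as RNA. It had 268, 266 and 268 scaled TPM at 48 h, against 303, 272 and 302 undifferentiated. The groups did not overlap, as in 78.2% of all tested genes, but replicate 2 of the undifferentiated group lay close to the 48 h libraries. The change of -0.13 ± 0.04 (limma adjusted p = 0.020) lost its call in 9 of 19 alternatives, over which it ran from -0.23 to -0.02. Without 48 h replicate 2, undifferentiated replicate 1 or undifferentiated replicate 3 the limma adjusted p was 0.054, 0.070 and 0.067. Of 39 listed ATF4 targets 32 were tested, 21 were lower and 8 higher, with a median of -0.26, and under quantile normalization 14 were lower and 9 higher. Over all tested genes, on the deposited scale, 46.2% were lower and 29.8% higher. SLC38A2, an amino acid transporter, had 31.5 to 34.5 scaled TPM at 48 h against 93.8 to 111 undifferentiated, and GPT2, an alanine aminotransferase, and CBS, an enzyme of transsulfuration, changed by -1.49 and -1.14. ALDH18A1, of proline synthesis, rose by 0.73, WARS, the tryptophanyl-tRNA synthetase, by 0.67 and ATF3 by 0.61.

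Of 18 tested genes of the erythropoietin pathway 10 were lower and 5 higher, shares near the 46.2% and 29.8% over all tested genes. At least 2-fold, 5 of the 18 were lower and 3 higher, larger shares than the 9.96% and 3.08% over all tested genes. EPOR, the receptor, had 157, 151 and 158 scaled TPM at 48 h, against 70.8, 68.3 and 76.2 undifferentiated, and its kinase JAK2 rose by 1.18 ± 0.07. ERFE, erythroferrone, the hormone through which erythroblasts lower hepcidin, had 112, 118 and 119 at 48 h, against 23.7, 25.9 and 26.1 undifferentiated. PTPN6, the phosphatase SHP-1 that damps receptor signalling, had 2.23, 1.85 and 1.87 at 48 h, against 40.0, 37.1 and 36.4 undifferentiated, and the kinase LYN had 19.0 to 19.5 against 102 to 109. Receptor and phosphatase thus moved in opposite directions. Neither had overlapping groups, which held for 78.2% of all tested genes.

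Cell cycle genes mostly rose. Of 28 S phase genes, all tested, 20 were higher and 5 lower, and of 26 genes of G2 and mitosis, 24 were higher and 2 lower, with medians of 0.26 and 0.44. After rescaling to equal sums, 15 S phase genes were higher and 6 lower, with a median of 0.16, and 22 and 3 under median-of-ratios scaling. For G2 and mitosis these counts were 22 and 2, and 24 and 0. CCNE1, cyclin E1, had 132, 130 and 134 scaled TPM at 48 h, against 26.4, 28.2 and 28.3 undifferentiated. The other rises were modest, at 1.00 for E2F2, 0.87 for RRM2 of ribonucleotide reductase, 1.12 for ANLN and 0.95 for PRC1, both of cytokinesis. PLK1, a mitotic kinase, was 1 of the 2 mitotic members called lower, at -0.09, and median-of-ratios scaling turned it to 0.02. Of 19 tested arrest and p53 target genes 10 were higher and 7 lower, and 8 and 7 after rescaling to equal sums. Before rescaling, 29.8% of all tested genes were higher and 46.2% lower. BTG2, an antiproliferative p53 target, had 54.6 to 56.7 scaled TPM at 48 h against 12.1 to 13.3 undifferentiated, and CDKN1A, the inhibitor p21, had 3.15, 2.25 and 2.35 against 0.242, 0.109 and 0.356. CDKN1A passed the filter on low values through the 48 h libraries alone.

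Of the growth and biosynthesis lists, all but that of ribosomal proteins were mostly lower. Of 24 ribosome biogenesis genes 18 were lower and 2 higher, with a median of -0.36; NOLC1, a nucleolar phosphoprotein, changed by -0.79 ± 0.03. The higher members were UTP20 at 0.18 and BOP1 at 0.09, whose groups overlapped and whose change was -0.01 after rescaling to equal sums. Of 72 cytosolic ribosomal protein genes 17 were higher, 26 lower and 29 not called, with a median of -0.04 that ran from -0.15 to 0.07 over the scalings, so no direction held for that family. Its largest fall was RPS10, at 17.1 to 18.7 scaled TPM at 48 h against 61.8 to 62.2 undifferentiated, a low level that may be shared with an overlapping readthrough entry. Of 22 genes of cholesterol synthesis 19 were lower and 1 higher, with HMGCS1, which condenses acetyl groups at its start, at 60.6, 63.0 and 65.3 scaled TPM at 48 h, against 328, 321 and 317 undifferentiated. Of 22 ER chaperone genes 18 were lower and 3 higher, led by MANF at -1.27 and XBP1 at -0.96.

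Members of the oxidative response moved in both directions, with 14 of 22 genes lower and 8 higher. The shares over all tested genes were 46.2% lower and 29.8% higher. HMOX1, heme oxygenase, had 15.6, 14.6 and 13.3 scaled TPM at 48 h, against 5.67, 4.50 and 5.55 undifferentiated, and SLC48A1, a heme transporter of endosomes, rose by 1.21 ± 0.05. MGST1, a membrane glutathione transferase, had 11.7, 11.8 and 10.9 at 48 h, against 116, 112 and 118 undifferentiated, and NQO1, a quinone reductase, changed by -2.11. Mitochondrially encoded transcripts were 7.51% ± 0.306 of the signal at 48 h against 10.2% ± 0.150 undifferentiated (SD, n = 3 each), and 2.62% ± 0.344 at 5 d. The difference between 48 h and undifferentiated was -2.72 percentage points, and -1.76 as a share of the sum without globins. Of 13 mitochondrially encoded genes 9 were lower and 2 higher. MT-CO2, a subunit of cytochrome oxidase, had 9010, 8743 and 8802 scaled TPM at 48 h, against 14880, 15147 and 15712 undifferentiated. MT-CO1 was called higher at 0.12, but its groups overlapped and quantile normalization turned it to -0.29.

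**Figure D4:**
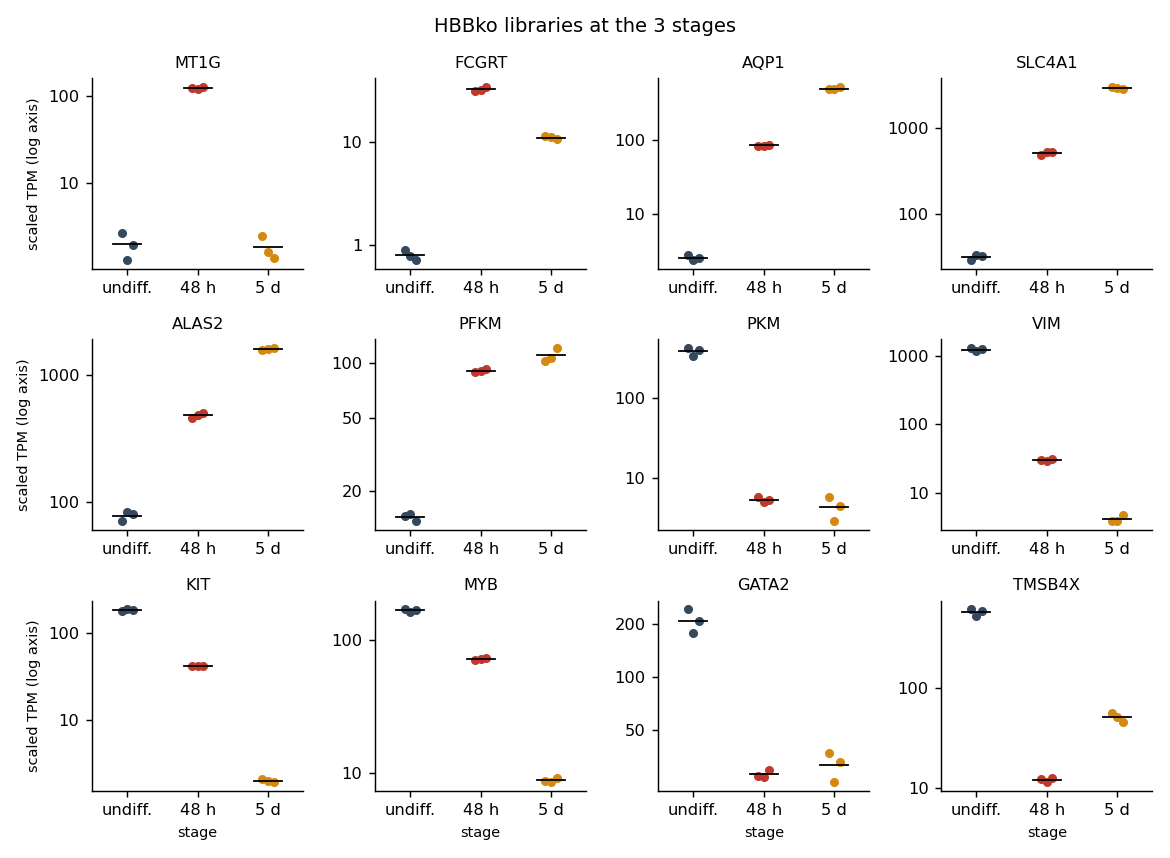
Scaled TPM (log axis, own range in each panel) of 12 named genes in the 3 HBBko libraries of each stage, in time order; points are libraries and bars are means. MT1G and FCGRT are highest at 48 h, AQP1, SLC4A1 and ALAS2 have their highest values at 5 d, KIT and MYB their lowest at 5 d, and TMSB4X has its lowest at 48 h.

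The same interval in WT cells gives a setting with no shared library. Fitted alone, WT had 56.2% of its 11266 tested genes called, 19.3% higher and 36.8% lower, with 335 genes at least 2-fold higher (2.97%) and 1117 lower (9.91%). Of the HBBko lists, 247 of the higher genes, 71.4% of the HBBko list and 73.7% of the WT list, and 880 of the lower genes, 78.6% and 78.8%, were in both. Over 11022 genes tested in both lines, Pearson's r of the changes was 0.930, across genes, which are not independent replicates. Without undifferentiated WT replicate 3, r was 0.938, WT had 381 genes at least 2-fold higher and 1174 lower, and 263 and 909 were shared, 76.0% and 81.2% of the HBBko lists and 69.0% and 77.4% of the WT lists. The difference between the lines was tested directly in 12 libraries as the HBBko change minus the WT change. It was called for 1308 of 11577 genes (11.3%), 766 higher (6.62%) and 542 lower (4.68%) in HBBko, and reached 2-fold for 30 (0.259%) and 36 (0.311%), or 23 and 37 without that WT library. Of the 346 genes at least 2-fold higher in HBBko cells 50 had a called difference from WT, and of the 1119 lower genes 188, or 82 and 229 without it.

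The number of called differences depended on single libraries. Without undifferentiated WT replicate 3, which stood apart from its group, it was 1044 higher and 759 lower. Without replicates 1 and 2 of that group it was 1308 and 1007, and 959 and 681. Without HBBko 48 h replicates 1, 2 and 3 the counts were 308 and 205, 303 and 202, and 338 and 230. Without undifferentiated HBBko replicates 1, 2 and 3 they were 305 and 190, 534 and 354, and 442 and 304, and without WT 48 h replicates 1, 2 and 3 they were 346 and 230, 385 and 240, and 474 and 385. Rescaling to equal sums moved the median difference to 0.10 and gave 1359 higher and 218 lower genes.

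The named differences were of several kinds. HBD rose by 1.82 in HBBko cells and by 3.19 in WT cells, a difference of -1.38 ± 0.21 (limma adjusted p = 0.0035). MT1G rose by 5.38 in HBBko cells and by 3.66 in WT cells, a difference of 1.72 ± 0.48 (limma adjusted p = 0.037) that was called in only 3 of the 12 fits without 1 library and was 1.18 ± 0.21 without undifferentiated WT replicate 3. GATA2 changed by -2.84 in HBBko cells and by -1.74 in WT cells, and CALB2 by -4.46 and -2.54, and both differences were called in all 12. Without undifferentiated WT replicate 3 the differences were -1.47 for HBD and -1.84 for CALB2, and that of GATA2 kept its call (limma adjusted p = 0.0074). Of 13 mitochondrially encoded genes, 10 had a difference called higher, with list medians of -0.35 in HBBko cells and -0.85 in WT cells. Of 22 ER chaperone genes 8 and of 24 ribosome biogenesis genes 7 had a difference called lower. Over all genes tested for a difference, 6.62% were called higher and 4.68% lower. Such list counts of differences were not repeated under other scalings. Of 32 ATF4 targets 7 had a difference called higher, with medians of -0.26 in HBBko cells and -0.58 in WT cells, while ATF4 itself did not (0.41 ± 0.14, limma adjusted p = 0.082). Without undifferentiated WT replicate 3 the ATF4 difference was 0.26 ± 0.08 and was called (limma adjusted p = 0.039). The counts of these 4 lists were then 12 mitochondrially encoded genes and 10 ATF4 targets higher, and 8 ER chaperone and 9 ribosome biogenesis genes lower, with WT medians of -0.82 for the first list and -0.43 for the second.

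**Figure D5:**
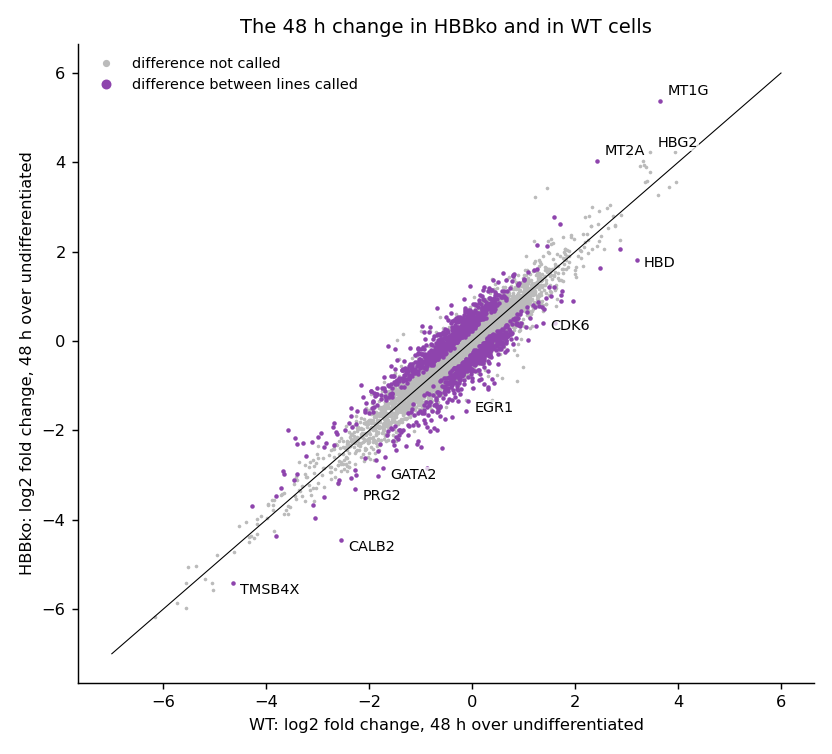
Log2 fold change over the first 48 h in HBBko cells (vertical axis) against that in WT cells (horizontal axis), both 48 h over undifferentiated, for genes tested in the HBBko fit and in the 12-library fit; the line marks equal change and purple points are genes with a called difference between the lines. Most genes lie along the line; MT1G and MT2A lie above it, and HBD, CALB2, GATA2 and PRG2 below.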

How the data were processed

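RNA-seq of HUDEP-2 and HBBko cells was processed by the authors with kallisto and sleuth against hg38, per the submitters' processing notes, with versions and annotation not given in the sources used here. The authors deposited a signal table per gene symbol, named TPM, whose sums differ between libraries, so it is TPM scaled in an unstated step (scaled TPM). The plan had foreseen such scaled values. Counts and depth are unknown, so the precision rests on the replicate spread.

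Genes with at least 1 scaled TPM in 3 libraries were fitted as log2(scaled TPM + 1) in R 4.3.3 with limma 3.58.1 (eBayes with trend), 6 libraries with 4 residual degrees of freedom, or 12 with 8 for the difference between lines. Tests were two-sided, Benjamini-Hochberg adjusted across the tested genes and checked on simulated data. Those data held known changes in a small part of the genes and no difference in scale between libraries. They therefore cannot test how the scaling moves the counts. Shares were compared by exact permutation.

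Members and the 34 gene lists were chosen with earlier results of these data known. Of 749 listed symbols, 724 matched as written, 23 through older symbols and 2 did not match. Named were all globins, the 15 largest 2-fold rises and falls with a mean of at least 10 in either group, up to 3 rises and 3 falls of each list, and 8 fixed regulators; 3 genes that this rule names are not reported here but stay in the fits and list counts. Alternatives covered pseudocount, filter, scaling, weights, trend, all 18 libraries, a replicate block and each library left out; the WT fit without undifferentiated replicate 3 was added after seeing the data. Coordinates are from GENCODE (GRCh38) and promoters from RefSeq (GRCh38.p14).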

Additional observations from a re-analysis of the deposited data

Results flagged for a closer look

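The 32 named genes below had a called difference between the lines in the 48 h change (limma, 12 libraries, HBBko change minus WT change, log2 scale). All 32 kept their call without undifferentiated WT replicate 3. Of them, 20 kept it in every fit without 1 library, and 14 in these and all 13 other alternatives.

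Among globins, HBD differed by -1.38 and HBE1 by 0.70. The metallothioneins MT1G and MT2A differed by 1.72 and 1.61, each called in 3 of 12 fits without 1 library, and by 1.18 and 1.09 without undifferentiated WT replicate 3. Of genes that fell in both lines, TMSB4X differed by -0.78, CALB2 by -1.92, SPI1 by -0.55, GATA2 by -1.11 and PRG2 by -1.04, so each fell further in HBBko cells. KDM1A differed by 0.52 and ITGA2B by 0.65, a smaller fall in HBBko cells. ITGA2B was low, since the 12 megakaryocyte markers, of which it is 1, together summed to 3.89 to 4.08 scaled TPM in undifferentiated HBBko libraries. Its difference ran from 0.096 to 0.71 over the alternatives. CDK6 rose less in HBBko cells (-0.98), and MAFK differed by -0.69.

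Of cell cycle and arrest genes, RRM2 differed by -0.41, GINS3 by 0.35, CDC25C by 0.45 and CDKN1A by 0.94. RRM2, GINS3 and CDC25C were called in 5, 5 and 3 of the 12 fits without 1 library. CDKN1A was called in all 12, but it was below 1 scaled TPM in undifferentiated HBBko libraries. Its difference ran from 0.36 to 1.69 over the alternatives. Of immediate early genes, EGR1 differed by -1.25, ZFP36 by -0.70, FOSL1 by -0.84 and JUND by -0.59. They were called in 12, 8, 5 and 4 of the 12 fits without 1 library. NOP16, of ribosome biogenesis, differed by -0.76, falling in HBBko cells (-0.65) with a change of 0.11 in WT cells. The chaperones HSPB1, MANF and HYOU1 differed by -0.39, -0.69 and -0.38, and were called in 3, 12 and 8 of those 12 fits.

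The mitochondrially encoded MT-ND5, MT-CO2, MT-CYB and MT-ATP6 differed by 0.49, 0.39, 0.70 and 0.46. Over the alternatives the differences of MT-CO2 and MT-ATP6 changed sign, with lowest values of -0.17 and -0.0035. HMOX1 differed by 0.82, NBR1, an autophagy receptor, by 0.43 and LMNB2, lamin B2, by -0.57.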

How the results depend on the processing

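Over 19 alternatives, 3688 of 3753 values of the 198 named genes kept their direction and call, 61 lost the call and 4 reversed, and none of the 99 genes with a 2-fold change reversed. The reversed values were 0.084 for MAFK and -0.29 for MT-CO1 under quantile normalization, 0.022 for PLK1 under median-of-ratios scaling, and -0.015 for BOP1 after rescaling to equal sums; the cause was not tested.

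Genes at least 2-fold higher and lower at 48 h numbered 194 and 511 with a pseudocount of 5, and 567 were higher under quantile normalization. Differences of at least 2-fold between lines numbered 71 and 56 with a pseudocount of 0.1, 6 and 9 with one of 5, and 20 were lower with a filter of 5. Called differences numbered 455 and 331 with no filter and 1359 and 218 after rescaling to equal sums, and 356 were lower after rescaling without globins and mitochondrial genes. Without 1 library, called genes at 48 h ran from 3062 to 3364 higher and 4947 to 5151 lower, and at least 2-fold from 331 to 363 and 1108 to 1132. Called differences between lines then ran from 303 to 1308 higher and 190 to 1007 lower, and at least 2-fold from 23 to 44 and 25 to 54.

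Same-numbered HBBko libraries at 48 h and undifferentiated deviated together at r of -0.06, 0.13 and 0.02. Differently numbered ones did so at -0.14 to 0.12. Such values cannot decide whether same-numbered libraries share a culture or batch. In HBBko cells the deposited sum and HBB both rose from replicate 1 to replicate 3 at each stage. Pairing of the WT libraries was not checked. The replicate block gave 3355 higher and 5217 lower genes at 48 h, and 753 and 602 called differences. Read counts are unknown, so a low or zero value cannot be told from one below detection.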

Other observations

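Other gene lists are given here by their counts, which can be read against 29.8% of all tested genes higher and 46.2% lower. Of 13 tested immediate early genes 7 were lower and 3 higher: ZFP36, which destabilises mRNA, had 6.30, 6.21 and 6.49 scaled TPM at 48 h, against 37.8, 29.1 and 34.6 undifferentiated, while DUSP1, a MAP kinase phosphatase, rose by 1.37 ± 0.05. Of 15 tested interferon response genes 8 were lower and 6 higher. IFITM2, a membrane protein that restricts viral entry, had 4.46, 4.57 and 4.09 at 48 h, against 35.7, 35.2 and 35.6 undifferentiated, and BST2, tetherin, changed by -1.71. ISG20, an exonuclease, rose by 1.62 ± 0.07 and IRF9, a subunit of the interferon-activated factor, by 1.31 ± 0.08. Members of the list thus moved in opposite directions with no overlap between groups, which 78.2% of all tested genes also lacked.

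Of 31 proteasome genes 20 were higher and 5 lower, with PSMD12 rising by 0.86, and the counts were 13 and 9 after rescaling to equal sums and 26 and 1 under median-of-ratios scaling. Of 27 tested autophagy genes 12 were higher and 11 lower, or 16 and 5 under quantile normalization and 14 and 6 under median-of-ratios scaling. WIPI1, which acts in autophagosome formation, rose by 1.28 and the receptor SQSTM1 changed by -0.68. Of 15 tested histone genes 6 were higher and 5 lower, and H1F0, the linker histone of non-dividing cells, had 3.72 to 4.37 scaled TPM at 48 h against 0.954 to 1.06 undifferentiated and a mean of 148 at 5 d. Of 18 nuclear condensation genes 9 were higher and 7 lower, and of 24 heat shock genes 8 and 11, with median changes of 0.08 and -0.06 whose signs turned under other scalings. Of 32 nuclear genes of the respiratory chain 5 were higher and 16 lower, with a median of -0.09, and 13 and 10 under median-of-ratios scaling, with a median of 0.03.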
